A study of Mus musculus with 16 samples.

Results

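The DNA replication machinery was described here through 45 genes, in mouse fibroblasts, in cells at an intermediate stage of induction, in induced pluripotent stem cells and in embryonic stem cells. The members were chosen by name, for their known roles: 9 act in origin recognition and licensing, 12 in or with the replicative helicase, 9 are polymerase and primase subunits, 11 belong to the clamp, its loader, strand joining and single-strand binding, and 4 supply nucleotides. Each symbol was looked up in the array's annotation, and the probe with the highest mean raw intensity stood for its gene. Of the 45 symbols 42 had a probe, among 16590 genes on the array, and 35 of these passed the detection filter (detected, with p under 0.01, on 4 or more of the 16 arrays), among 9455 genes tested. Gins1, Gins2 and Rfc3 were not analysed here, because no probe carried their names.

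Total RNA from 16 dishes was hybridised to Illumina BeadChips, 1 array per dish and 4 per group, to follow a stepwise induction of pluripotent cells. The OKM cells were the intermediate stage, of strain CD1 (titles 3F-CD1), and the iPS cells, also CD1, carried SOX2 in their titles as well (3F-SOX2-CD1). The ES cells were of strain 129 (titles R26) and the MEF cells, the embryonic fibroblasts at the start, of strain CD1. OKM, iPS and ES cells were kept on MEF feeders treated with mitomycin C, a cross-linker that stops division, in medium with 15% serum and 10 ng/ml of the cytokine LIF, whereas MEF cells had 10% serum and no feeders are named for them. How the factors were delivered, and whether a group is 1 clone or line, is not given in the sources used here. Dishes are called independent in the design text, and nothing more is said of separate derivations, so the p-values below measure the spread between dishes.

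Replication starts at origins bound by the origin recognition complex, where Cdc6 and Cdt1 load the MCM helicase. Cdc45, the GINS complex and Mcm10 then help the helicase to open the helix, primase and the polymerases copy the strands, and the clamp Pcna keeps the polymerases on the template. Embryonic stem cells are known for a short cell cycle of which S phase takes a large share, and many replication genes are known targets of E2F transcription factors.

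Arrays of a group resembled each other closely (Pearson's r across genes 0.984 to 0.996), no columns were identical, and the share of probes detected ran from 44.9% to 49.1%. Of 10 fibroblast markers 9 were detected on every MEF array, and their summed linear intensity was 13460 to 14920 in OKM cells, 11900 to 15000 in iPS cells and 2344 to 6585 in ES cells, against 70170 to 79230 in MEF cells. Of 10 pluripotency markers, 7 to 8 were detected per OKM array (Esrrb and Utf1 on none), 10 on every iPS and ES array and 0 on every MEF array. Their sums were 8988 to 9600, 98540 to 100500 and 129000 to 137900 in OKM, iPS and ES cells, against 271 to 349 in MEF cells. Of 6 macrophage markers with a probe, 5 were detected on every MEF array and 1, Laptm5, on every OKM and iPS array, with 1 to 2 detected per ES array. Their sums were 12130 to 13970, 8102 to 11200 and 6146 to 7733 in OKM, iPS and ES cells, against 9366 to 10420 in MEF cells. Of the 5 tested, 4 were called lower in OKM than in MEF cells (15.8% of all genes were) and 1 higher (16.1% of all genes). Their median log2 change was -3.915. Of 5 endothelial markers 2 were detected per array in every group, with Cdh5 and Kdr on none, and the sums were 2279 to 2584, 1017 to 1140 and 1137 to 1233 in OKM, iPS and ES cells, against 253.5 to 296.1 in MEF cells. Pecam1, detected on no MEF array, and Tek were higher in OKM than in MEF cells, by 6.18 and 3.03 on the log2 scale. Emcn, detected on no OKM, iPS or ES array, was lower in OKM than in MEF cells, by a log2 change of -2.35. Where undetected, Pecam1 and Emcn are known only to be not well above background, and their measured changes rest on that level. Of 5 primitive endoderm markers Gata4, Sox17 and Foxa2 were detected on no array, and the sums were 218.9 to 266.4, 407 to 535.1 and 251.5 to 342.9 in OKM, iPS and ES cells, against 652.3 to 757.3 in MEF cells. Gata6 and Sox7, the others of that list, were both called higher in iPS than in OKM cells, Gata6 by 1.02 on the log2 scale. Of 4 trophoblast markers Eomes, Elf5 and Hand1 were detected on no array and Cdx2 on every iPS array, with sums of 114.9 to 131.5, 151.6 to 195.2 and 97.25 to 103.2 in OKM, iPS and ES cells, against 94.48 to 99.01 in MEF cells. RNA of the feeders and of other cells in a dish is part of these samples, and its part in the results below was not tested.

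The comparison of OKM with MEF cells asked what the first step of the induction changed. The replication genes stood higher at the intermediate stage across every role. Of the 35 tested members 21 rose, with an adjusted p under 0.05 and at least 2-fold, where 16.1% of all genes tested were called higher. No member was called lower, where 15.8% of all genes were, and at an unadjusted p under 0.05 the count of lower members was also 0 (limma). The median log2 change was 1.11 over the members and 0.02 over all genes. All 35 were higher by the adjusted p alone (36.5% of all genes were). Over the 33 members detected on all 16 arrays, whose place in the count did not hang on a group where they were bright, 19 rose and the median was 1.21. In whole-dish RNA, a larger share of cells in S phase and more of these transcripts per cell cannot be told apart. Serum, LIF and feeders differ with the stage in OKM, iPS and ES cells against MEF cells, and their effects and that of the stage cannot be told apart.

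**Figure D1:**
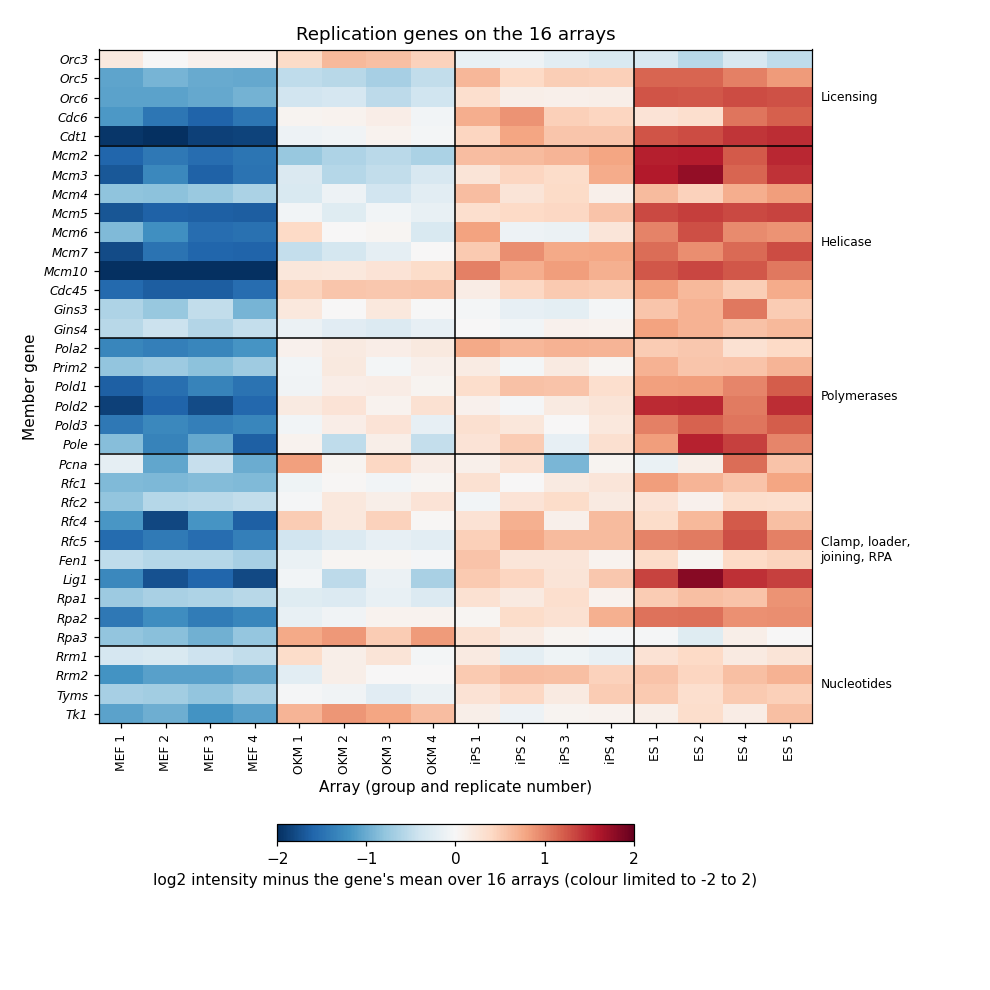
Each row is 1 of the 35 tested members, grouped by role, and each column 1 of the 16 arrays; the colour gives the log2 intensity minus that gene's mean over the arrays, limited to -2 to 2. The MEF columns are blue, in places pale, in all rows but that of Orc3, and the ES columns are the reddest in most rows.

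The means stood in the order MEF, OKM, iPS, ES for 26 of the 35 tested members, or 74.3%, and for 16.4% of all genes tested. MEF cells had the lowest mean for 34 members (97.1%, against 36.3% of all genes), and ES cells the highest for 31 (88.6%, against 34.7%). The origin recognition gene Orc3 was the member whose lowest mean was not in MEF cells. Averaged over the members, the deviation from each gene's own mean was -1.14 ± 0.02 in MEF, 0.01 ± 0.03 in OKM, 0.32 ± 0.04 in iPS and 0.81 ± 0.04 in ES cells (log2, SD over 4 arrays). No array of a group overlapped with those of another group on this average. For the 30 members that were higher in ES than in MEF cells, the OKM mean lay at a median of 0.56 of the log2 distance from MEF to ES (0.22 to 1.32) and the iPS mean at 0.73 (0.42 to 1.15). The same medians over the 2292 genes higher in ES cells were 0.42 and 0.68.

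**Figure D2:**
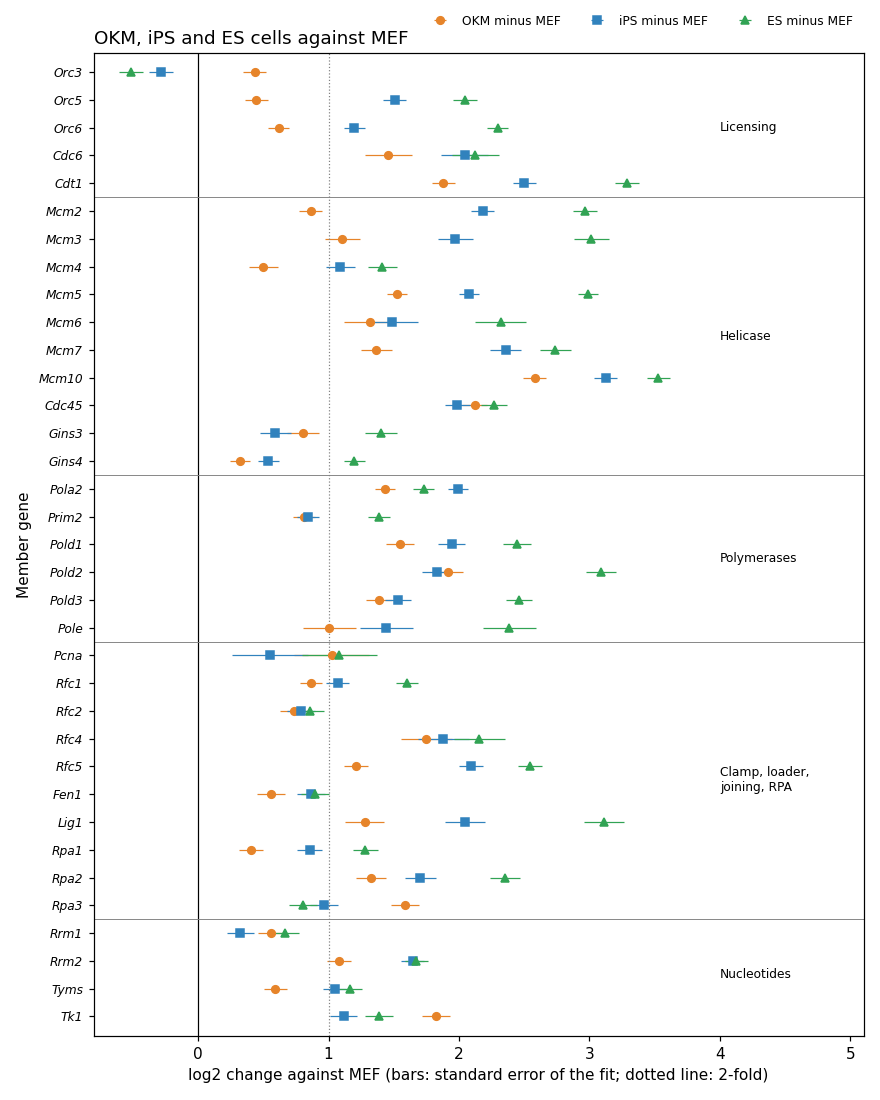
Log2 change of the OKM (circles), iPS (squares) and ES mean (triangles) against the MEF mean for each tested member, by role from top to bottom, with the standard error of the fit; the dotted line marks 2-fold. Most circles lie right of 0.5, the triangles lie farthest right in 31 rows, and Orc3 alone has squares and triangles left of 0.

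Members whose promoters hold the letters of an E2F motif are shown first, since E2F factors are known to bind such letters. RefSeq promoter windows (GRCm38.p6, 250 bases before to 50 after a transcript start) were found for 37 of the 45 members. The letters searched were TTTCCCGC, TTTCGCGC, TTTGGCGC and TTTGCCGC on both strands, which can overlap on opposite strands. A window of 15 of these 37 genes (40.5%) held at least 1 of them, as did 4.6% of the tested genes with a window and 2.6% of all genes of the table. Among the tested members alone it was 11 of 30 with a window, or 36.7%, the share that compares with the 4.6%. By window the shares were 33.3% for all members, 31.4% for tested members, 3.7% for tested genes and 2.3% for all genes. The 15 included Orc3, which was lower in iPS and ES than in MEF cells (by log2 changes of -0.28 and -0.51), and also Orc1, Pola1 and Pole2, detected on no array, and Rfc3, which had no probe. The share was 62.5% (5 of 8) for helicase genes, 57.1% (4 of 7) for polymerase and primase genes, 4 of 8 for licensing genes, 20.0% (2 of 10) for the clamp, loader, joining and single-strand binding genes and 0 of 4 for nucleotide supply genes. The shorter letters CCAAT, on either strand, stood in 62.2% of member genes (56.7% of the tested members), in all 8 helicase genes with a window, and in 43.3% of the tested genes. These are matches of letters and show no binding. Among the largest changes in OKM against MEF cells, Cdt1 (1.88) held 1 match in its window. Mcm10, Cdc45, Pold2, Tk1 and Rfc4 held none, at 2.58, 2.12, 1.92, 1.82 and 1.75. The 6 windows below belong to members described in detail below. Orc3, also described there, holds 1 match, and its window is not shown. Capitals mark the E2F letters, read 5′ to 3′ along the gene's strand.
Cdc6, chr11:98907901-98908200, plus strand: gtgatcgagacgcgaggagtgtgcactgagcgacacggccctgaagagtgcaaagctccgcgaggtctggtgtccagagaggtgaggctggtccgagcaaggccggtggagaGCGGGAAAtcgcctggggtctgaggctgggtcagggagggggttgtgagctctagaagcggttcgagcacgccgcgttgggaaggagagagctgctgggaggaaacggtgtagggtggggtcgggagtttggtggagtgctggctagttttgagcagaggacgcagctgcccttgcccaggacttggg
Cdt1, chr8:122567765-122568064, plus strand: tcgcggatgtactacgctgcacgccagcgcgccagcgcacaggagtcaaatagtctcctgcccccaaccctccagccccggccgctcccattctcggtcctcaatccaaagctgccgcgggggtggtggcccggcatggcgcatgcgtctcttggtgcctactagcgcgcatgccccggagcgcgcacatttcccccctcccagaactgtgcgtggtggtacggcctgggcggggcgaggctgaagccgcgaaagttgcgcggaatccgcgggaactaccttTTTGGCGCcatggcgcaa
Mcm3, chr1:20820263-20820562, minus strand: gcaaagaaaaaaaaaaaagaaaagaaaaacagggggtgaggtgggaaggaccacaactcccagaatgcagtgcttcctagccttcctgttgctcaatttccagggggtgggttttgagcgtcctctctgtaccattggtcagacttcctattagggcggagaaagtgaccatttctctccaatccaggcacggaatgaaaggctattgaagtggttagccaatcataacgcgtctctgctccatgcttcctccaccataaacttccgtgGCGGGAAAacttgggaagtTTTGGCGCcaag
Mcm5, chr8:75109259-75109558, plus strand: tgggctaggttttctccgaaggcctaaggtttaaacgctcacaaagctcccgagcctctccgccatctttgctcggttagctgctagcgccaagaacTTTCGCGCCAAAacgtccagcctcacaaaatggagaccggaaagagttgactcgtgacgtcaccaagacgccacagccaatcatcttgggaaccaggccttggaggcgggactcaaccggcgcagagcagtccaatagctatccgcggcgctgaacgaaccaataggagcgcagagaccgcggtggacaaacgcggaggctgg
Pold1, chr7:44548766-44549065, minus strand: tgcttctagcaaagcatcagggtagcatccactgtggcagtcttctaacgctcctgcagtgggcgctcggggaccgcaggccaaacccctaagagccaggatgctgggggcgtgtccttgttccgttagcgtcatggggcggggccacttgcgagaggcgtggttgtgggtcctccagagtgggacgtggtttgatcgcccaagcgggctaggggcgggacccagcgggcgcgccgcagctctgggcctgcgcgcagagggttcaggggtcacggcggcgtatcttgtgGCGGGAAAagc
Lig1, chr7:13278576-13278875, plus strand: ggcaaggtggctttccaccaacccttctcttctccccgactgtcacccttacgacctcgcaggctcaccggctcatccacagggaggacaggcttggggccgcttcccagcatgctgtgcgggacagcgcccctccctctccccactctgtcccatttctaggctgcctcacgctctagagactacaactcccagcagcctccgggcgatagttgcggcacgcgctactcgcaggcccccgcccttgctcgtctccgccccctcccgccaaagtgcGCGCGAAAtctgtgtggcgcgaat
The letters lay just past the transcript start in Cdt1 (window base 283), Mcm3 (270 and 289), Pold1 (290) and Lig1 (277). In Cdc6 (113) and Mcm5 (98 and 102, overlapping on opposite strands) they lay upstream of it. The Lig1 window shown is 1 of 3, and its other windows held no match.

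Among the licensing genes, Cdt1 and Cdc6 rose at the first step and the 3 tested subunits of the origin recognition complex were under 2-fold. Cdt1, which brings the MCM helicase to origins and whose window above carries 1 match, had log2 intensities of 9.78, 9.70, 9.85 and 9.87 in MEF, 11.62, 11.64, 11.79 and 11.67 in OKM, 12.15, 12.51, 12.28 and 12.27 in iPS and 12.97, 13.02, 13.15 and 13.20 in ES cells. The 4 groups did not overlap, and each stage lay above the one before. In OKM against MEF cells Cdt1 rose by 1.88 ± 0.09 (SE; adjusted p = 3.22e-12), a 3.68-fold difference. Cdc6, the ATPase that works with Cdt1, had 8.28, 8.29, 8.35 and 8.18 in OKM cells, against 7.08, 6.79, 6.63 and 6.79 in MEF cells. The groups were apart, with a change of 1.46 ± 0.18 (SE; adjusted p = 1.14e-06). Without background correction this change was 0.99, short of 2-fold, and one further Cdc6 probe, detected on 1 array, gave 0.90. In iPS cells Cdc6 had 8.96, 9.13, 8.71 and 8.66, against 8.50, 8.56, 9.30 and 9.42 in ES cells. These last groups overlapped, with the ES arrays spread more widely than the iPS arrays, and the difference was -0.08 ± 0.18 (SE; adjusted p = 0.72).

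Orc5, Orc6 and Orc3, subunits of the complex that marks origins, differed at the second step, where Orc5 and Orc6 were higher and Orc3 lower in iPS than in OKM cells by the adjusted p. Orc5 had 11.59, 11.31, 11.42 and 11.40 in iPS cells, against 10.41, 10.37, 10.27 and 10.43 in OKM cells. All iPS arrays were higher than all OKM arrays, by 1.06 ± 0.09 (SE; adjusted p = 2.76e-08), while the first step had given 0.45. A second Orc5 probe, detected on all 16 arrays, gave 1.07 for iPS against OKM, and with median scaling the change of the brighter probe was 0.93, under 2-fold. Orc6 changed by 0.58 ± 0.08 (SE; adjusted p = 9.32e-06) in iPS against OKM cells, under 2-fold. It had 12.40, 12.18, 12.16 and 12.17 in iPS cells, against 13.32, 13.31, 13.36 and 13.34 in ES cells, and the groups were far apart. It was lower in iPS cells by a log2 change of -1.10 ± 0.08 (SE; adjusted p = 2.59e-09). At the first step Orc6 averaged 11.65 in OKM cells and 11.03 in MEF cells, a change of 0.62. Orc3 ran against the rest of its role, with 7.78, 7.57, 7.68 and 7.67 in MEF, 7.96, 8.24, 8.18 and 8.05 in OKM, 7.43, 7.48, 7.37 and 7.29 in iPS and 7.26, 7.03, 7.27 and 7.08 in ES cells. Its OKM arrays were the highest and its ES arrays the lowest, and neighbouring groups did not overlap. Orc3 changed by 0.43 ± 0.09 (SE; adjusted p = 0.000376) in OKM against MEF cells and by -0.71 ± 0.09 (SE; adjusted p = 3.84e-06) in iPS against OKM cells, neither of them 2-fold. Orc1, Orc4 and Gmnn, the Cdt1 inhibitor geminin, were detected on 0 of 16 arrays, and Orc2 only on 3 of 4 ES arrays, at log2 means of 5.22 in iPS and 5.91 in ES cells. Against iPS, OKM and MEF cells, where Orc2 was not detected, the ES mean was at least 1.30-fold, 1.20-fold and 1.11-fold higher. That mean includes the ES array without detection.

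Among the helicase genes were the members with the largest changes of the first step, Mcm10 and Cdc45. Of 10 tested 6 rose, with a median log2 change of 1.21 (the others, Mcm2, Mcm4, Gins3 and Gins4, changed by 0.32 to 0.86 and passed the adjusted p alone). Mcm10, a factor needed for the helicase to start unwinding, had 9.12, 9.19, 9.15 and 9.21 in MEF, 11.71, 11.69, 11.76 and 11.85 in OKM, 12.48, 12.20, 12.31 and 12.18 in iPS and 12.72, 12.81, 12.72 and 12.53 in ES cells. The groups did not overlap, and the largest gap was that between OKM and MEF cells. There Mcm10 rose by 2.58 ± 0.09 (SE; adjusted p = 2.61e-14), which is 5.98-fold, and its second probe by 2.68. Cdc45, a partner of the MCM ring, had 10.77, 10.88, 10.85 and 10.88 in OKM cells, against 8.76, 8.67, 8.68 and 8.80 in MEF cells. The arrays lay close together within each group, and Cdc45 rose by 2.12 ± 0.10 (SE; adjusted p = 1.31e-12). In iPS cells Cdc45 had 10.47, 10.73, 10.85 and 10.81, against 11.13, 10.96, 10.81 and 11.07 in ES cells. The iPS arrays overlapped with those of OKM cells, with a change of -0.13 ± 0.10 (SE; adjusted p = 0.263) between them.

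The MCM proteins form the ring that unwinds DNA, and their 6 genes differed in whether, and at which step, they passed 2-fold. Mcm5 had 11.21, 11.31, 11.29 and 11.26 in MEF, 12.86, 12.68, 12.86 and 12.77 in OKM, 13.25, 13.32, 13.33 and 13.48 in iPS and 14.24, 14.29, 14.24 and 14.27 in ES cells. The groups were apart at each stage, and Mcm5 rose by 1.53 ± 0.08 (SE; adjusted p = 5.6e-12) at the first step. Mcm2 had 11.66, 11.67, 11.73 and 11.83 in iPS cells, against 10.28, 10.43, 10.50 and 10.40 in OKM cells, and 9.46, 9.61, 9.53 and 9.58 in MEF cells. Its 4 iPS arrays stood more than 1 unit above every OKM array. Mcm2 rose by 1.32 ± 0.09 (SE; adjusted p = 1.46e-09) in iPS against OKM cells, a 2.5-fold difference, after a first step of 0.86, short of 2-fold. Mcm3, with a pair of E2F matches in its window, had 9.73, 9.44, 9.53 and 9.70 in OKM cells, against 8.31, 8.72, 8.39 and 8.53 in MEF cells. These groups did not overlap and the change was 1.11 ± 0.14 (SE; adjusted p = 9.04e-07). It fell short of 2-fold without background correction (0.95) and on the first 8 arrays of the table alone (0.94). In iPS cells Mcm3 had 10.27, 10.45, 10.38 and 10.76, against 11.59, 11.77, 11.19 and 11.47 in ES cells, and every iPS array was below every ES array. Mcm3 was lower in iPS cells by a log2 change of -1.04 ± 0.14 (SE; adjusted p = 3.41e-06).

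Mcm6 and Mcm7 rose by 1.32 and 1.37 in OKM against MEF cells, and Mcm4 changed by 0.50. In iPS against OKM cells Mcm7 and Mcm4 changed by 0.99 and 0.59, both under 2-fold. Mcm6 varied within groups, and its iPS arrays (12.16, 11.24, 11.23 and 11.59) overlapped with those of OKM cells (11.75, 11.36, 11.39 and 11.04). Its other 2 probes detected on all 16 arrays gave -0.50 and 0.23 for iPS against ES cells, beside -0.83 for the brightest. The direction of Mcm6 in that comparison thus differed between probes. Gins4, of the GINS complex, changed by 0.32, 0.22 and -0.66 in OKM against MEF, iPS against OKM and iPS against ES cells, and Gins3 by 0.81, -0.21 and -0.81.

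**Figure D3:**
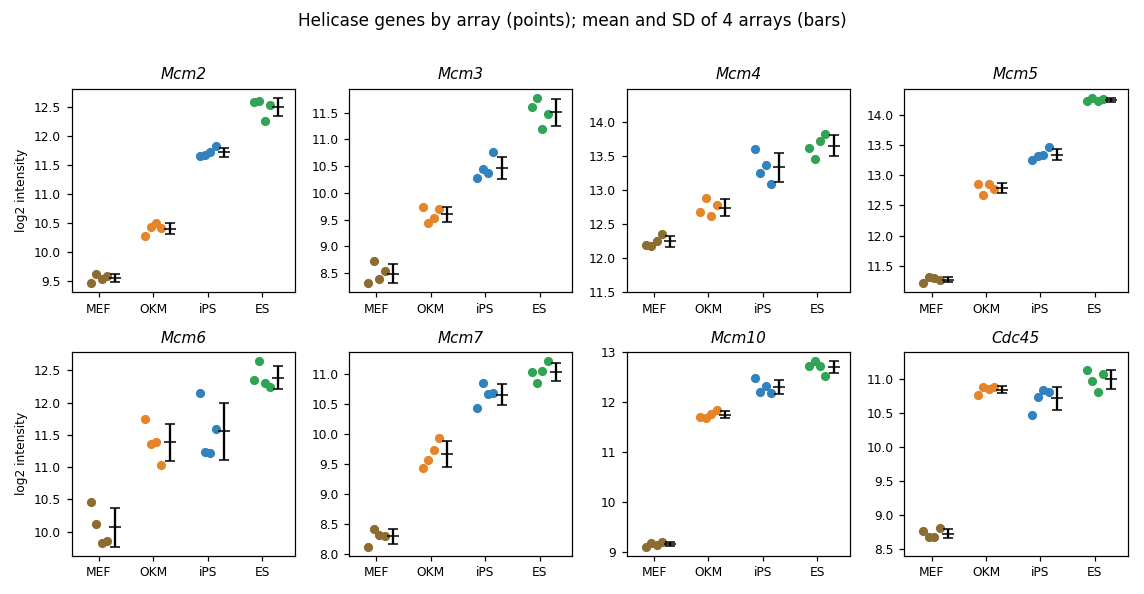
Log2 intensity (vertical axes, at least 3 units high) of 8 helicase genes on each array (points), with the mean and SD of the 4 arrays of a group beside them, in the order MEF, OKM, iPS and ES. Mcm2 has its widest gap between OKM and iPS cells, Mcm10 and Cdc45 between MEF and OKM cells, and the Mcm6 and Cdc45 points of OKM and iPS cells overlap.

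Of 6 tested polymerase and primase genes 5 rose at the first step, with a median of 1.41, and the primase subunit gene Prim2 changed by 0.81. Pold2, an accessory subunit of polymerase delta, had 9.32, 9.58, 9.41 and 9.62 in MEF, 11.37, 11.46, 11.26 and 11.50 in OKM, 11.28, 11.17, 11.37 and 11.45 in iPS and 12.69, 12.70, 12.23 and 12.68 in ES cells. OKM and iPS arrays overlapped, with MEF cells far below and ES cells far above both. Pold2 rose by 1.92 ± 0.11 (SE; adjusted p = 4.92e-11) in OKM against MEF cells, changed by -0.08 ± 0.11 (SE; adjusted p = 0.561) in iPS against OKM cells, and differed by -1.26 ± 0.11 (SE; adjusted p = 4.02e-08) in iPS against ES cells, the largest difference of any member there. Pold1, the catalytic subunit of the same polymerase, had 11.13, 11.33, 11.34 and 11.25 in OKM cells, against 9.57, 9.69, 9.87 and 9.72 in MEF cells. All OKM arrays were higher by over 1 unit, and Pold1 rose by 1.55 ± 0.10 (SE; adjusted p = 3.35e-10). Pola2, a subunit of the polymerase that works with primase, had 8.65, 8.60, 8.66 and 8.78 in MEF, 10.05, 10.14, 10.09 and 10.16 in OKM, 10.71, 10.63, 10.66 and 10.65 in iPS and 10.47, 10.51, 10.27 and 10.37 in ES cells. All its iPS arrays were above all its ES arrays, and its changes were 1.44 ± 0.08 (SE; adjusted p = 1.65e-11) in OKM against MEF cells, 0.55 ± 0.08 (SE; adjusted p = 1.21e-05) in iPS against OKM cells and 0.26 ± 0.08 (SE; adjusted p = 0.00776) in iPS against ES cells.

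Pold3, also of polymerase delta, rose by 1.39. Pole, the catalytic subunit of the leading-strand polymerase epsilon, rose by 1.01 and was detected on 3 of 4 MEF arrays; its change was under 2-fold in 7 alternatives (0.53 to 0.98). A second Prim2 probe, also detected on all 16 arrays, gave 0.08 for OKM against MEF cells and -1.26 for iPS against ES cells, where the brightest gave 0.81 and -0.54. Pola1, Prim1 and Pole2 were detected on 0 of 16 arrays.

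Among the clamp, loader, joining and single-strand binding genes 6 of 10 tested rose at the first step, with a median of 1.12. Rfc4, a subunit of the clamp loader, had 9.53, 9.22, 9.48 and 9.04 in OKM cells, against 7.85, 7.20, 7.84 and 7.39 in MEF cells. The groups were apart in spite of a spread of over 0.4 within each, and Rfc4 rose by 1.75 ± 0.20 (SE; adjusted p = 2.95e-07). A dimmer Rfc4 probe, detected on 9 arrays, gave 0.31. Rpa2, of the protein that coats single strands, had 9.77, 9.84, 9.98 and 9.99 in OKM cells, against 8.49, 8.68, 8.51 and 8.61 in MEF cells, and rose by 1.32 ± 0.12 (SE; adjusted p = 1.32e-08) with no overlap. Its dimmer probe, detected on 7 arrays, gave 0.94, under 2-fold. Rpa3, of the same protein, had 10.83, 10.79, 10.65 and 10.84 in MEF, 12.38, 12.48, 12.13 and 12.47 in OKM, 11.93, 11.79, 11.67 and 11.59 in iPS and 11.59, 11.38, 11.73 and 11.62 in ES cells. The OKM arrays were the highest, and iPS and ES arrays overlapped between OKM and MEF cells. Rpa3 rose by 1.59 ± 0.11 (SE; adjusted p = 2.72e-10) at the first step and changed by -0.62 ± 0.11 (SE; adjusted p = 8.84e-05) in iPS against OKM cells. Rpa1, the large subunit, changed by 0.40 and 0.45 in these comparisons.

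Rfc5, of the clamp loader, had 10.61, 10.89, 10.76 and 10.75 in iPS cells, against 9.74, 9.85, 9.96 and 9.92 in OKM cells, and 8.59, 8.71, 8.60 and 8.75 in MEF cells. The 3 groups were apart, at 0.88 ± 0.09 (SE; adjusted p = 3.47e-07) for iPS against OKM cells, the largest change of its role there, and 1.21 for OKM against MEF cells. Lig1, the ligase that seals the fragments of the lagging strand, had 9.12, 8.66, 8.82 and 8.60 in MEF, 10.36, 9.88, 10.30 and 9.76 in OKM, 10.94, 10.84, 10.66 and 10.95 in iPS and 11.76, 12.23, 11.87 and 11.78 in ES cells. No neighbouring groups overlapped. Lig1 was lower in iPS than in ES cells by a log2 change of -1.06 ± 0.15 (SE; adjusted p = 9.88e-06), and 2 further probes detected on at least 15 arrays gave -1.47 and -1.17. For iPS against OKM cells these probes gave 0.06 and 0.55, beside 0.77 for the brightest. The clamp gene Pcna was dim, detected on 4 OKM arrays, 3 iPS arrays, 3 ES arrays and 0 MEF arrays. Pcna had log2 intensities of 5.89 to 6.66 in OKM cells, against 4.81 to 5.66 in MEF cells, where it is known only to be not well above background. Against the lowest detected signal of those arrays it was at least 1.36-fold higher in OKM cells (adjusted p = 0.00415 for the measured change of 1.03), and 7 alternatives gave a change under 2-fold. The flap nuclease gene Fen1 and the loader genes Rfc1 and Rfc2 changed by 0.56, 0.86 and 0.74 in OKM against MEF cells.

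The 4 nucleotide supply genes were all measured, and 2 rose at the first step (median 0.84). Tk1, the thymidine kinase of the salvage pathway, had 10.07, 10.16, 9.95 and 10.05 in MEF, 11.82, 12.03, 11.92 and 11.75 in OKM, 11.25, 11.04, 11.19 and 11.21 in iPS and 11.25, 11.49, 11.29 and 11.73 in ES cells. Its OKM arrays were above all others. The highest iPS array, at 11.247, lay just under the lowest ES array, at 11.248. The change in iPS against ES cells was -0.27 ± 0.11 (SE; adjusted p = 0.0369). Tk1 rose by 1.82 ± 0.11 (SE; adjusted p = 4.21e-11) at the first step and changed by -0.71 ± 0.11 (SE; adjusted p = 2.4e-05) in iPS against OKM cells; a second probe gave 1.46 and -0.61. For OKM against ES cells that probe gave -0.07, beside 0.44 for the brightest, so the direction of Tk1 there differed between probes. Rrm2, the subunit of ribonucleotide reductase that limits its activity in the cycle, had 10.07, 10.40, 10.29 and 10.29 in OKM cells, against 9.09, 9.20, 9.19 and 9.25 in MEF cells. It rose by 1.08 ± 0.09 (SE; adjusted p = 5.54e-09) with no overlap, and by 0.98, short of 2-fold, without background correction. The large subunit gene Rrm1 had 11.17, 10.79, 10.91 and 10.84 in iPS cells, against 11.28, 11.39, 11.16 and 11.24 in ES cells, overlapping at 1 iPS array, with a change of -0.34 ± 0.10 (SE; adjusted p = 0.00857). Tyms, thymidylate synthase, changed by 0.59 in OKM against MEF cells and by 0.46 in iPS against OKM cells, which was under 2-fold both times.

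The comparison of iPS with OKM cells covered the second step. Of the 35 tested members 2 rose, Mcm2 and Orc5, where 7.31% of all genes were called higher. None was called lower, where 5.94% of all genes were (limma; 4 members were lower at an unadjusted p under 0.05). The median log2 change was 0.40 over the members and -0.02 over all genes. By the adjusted p alone 21 members were higher (26.9% of all genes) and 3 lower (28.1% of all genes), which were Orc3, Rpa3 and Tk1 at -0.71, -0.62 and -0.71. Between iPS and OKM cells 8 members had a lower mean in iPS cells: Orc3, Cdc45, Gins3, Pold2, Pcna, Rpa3, Rrm1 and Tk1. For 5 of these the adjusted p was 0.05 or above. The comparison with MEF cells shares the OKM arrays, so the steps are not independent.

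**Figure D4:**
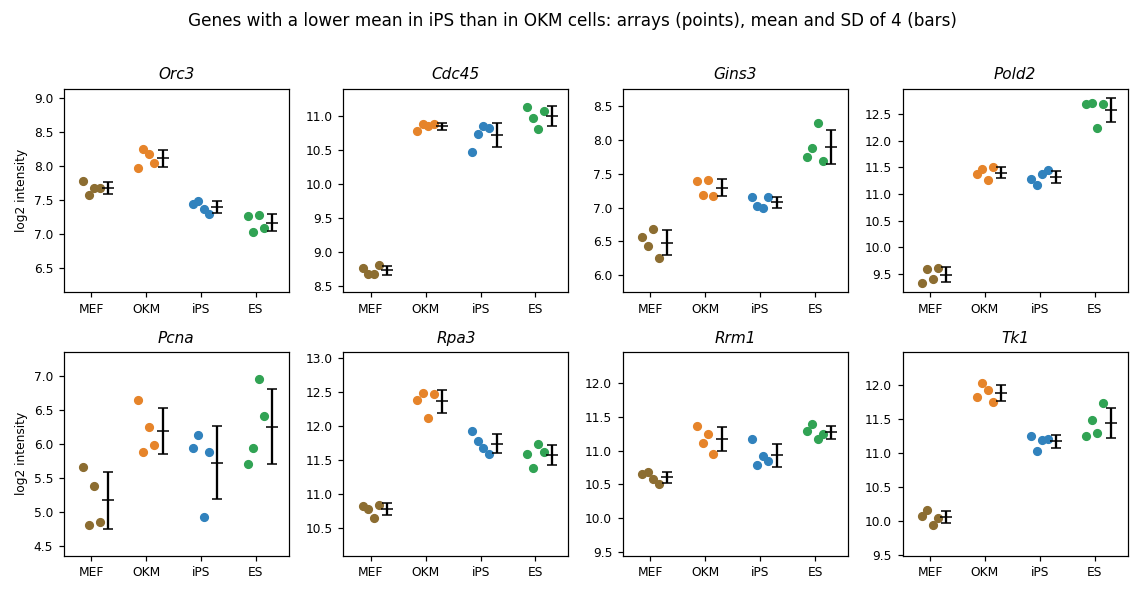
Log2 intensity (vertical axes) of the 8 members whose mean was lower in iPS than in OKM cells, on each array (points), with the mean and SD of 4 arrays beside them. Orc3, Rpa3 and Tk1 have their highest points in OKM cells, Pold2 and Cdc45 stand level in OKM and iPS cells, and the Pcna points spread over more than 1 unit in iPS and ES cells.

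Against ES cells, the end point of the induction had lower levels of many members. Of 35 tested, 4 were lower in iPS cells by 2-fold or more (7.32% of all genes were called lower): Pold2, Orc6, Lig1 and Mcm3. With median scaling 7 were lower by 2-fold or more. None was called higher, where 11.2% of all genes were (limma; 2 members were higher at an unadjusted p under 0.05). By the adjusted p alone 25 members were lower (31.8% of all genes) and 2 higher, Orc3 and Pola2 (30.0% of all genes). The median log2 change was -0.50 over the members and -0.04 over all genes. All 10 tested helicase genes were lower by the adjusted p alone, as were 5 of 6 polymerase and primase genes, 5 of 10 of the clamp, loader, joining and single-strand binding genes, 3 of 5 licensing genes and 2 of 4 nucleotide supply genes. These counts use the brightest probe, and for Mcm6 the direction differed between probes, as given above. Pole, Pold3 and Mcm5 came next after the 4, at -0.94, -0.93 and -0.91. Without ES replicate 2 Lig1 (-0.96) and Mcm3 (-0.95) were under 2-fold, which left 2 members called, and Mcm3 was so without iPS replicate 1 (-0.98) too. Strain, line and cell state differ together here and cannot be told apart, and the fibroblast marker sums given above were higher on every iPS array than on any ES array.

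**Figure D5:**
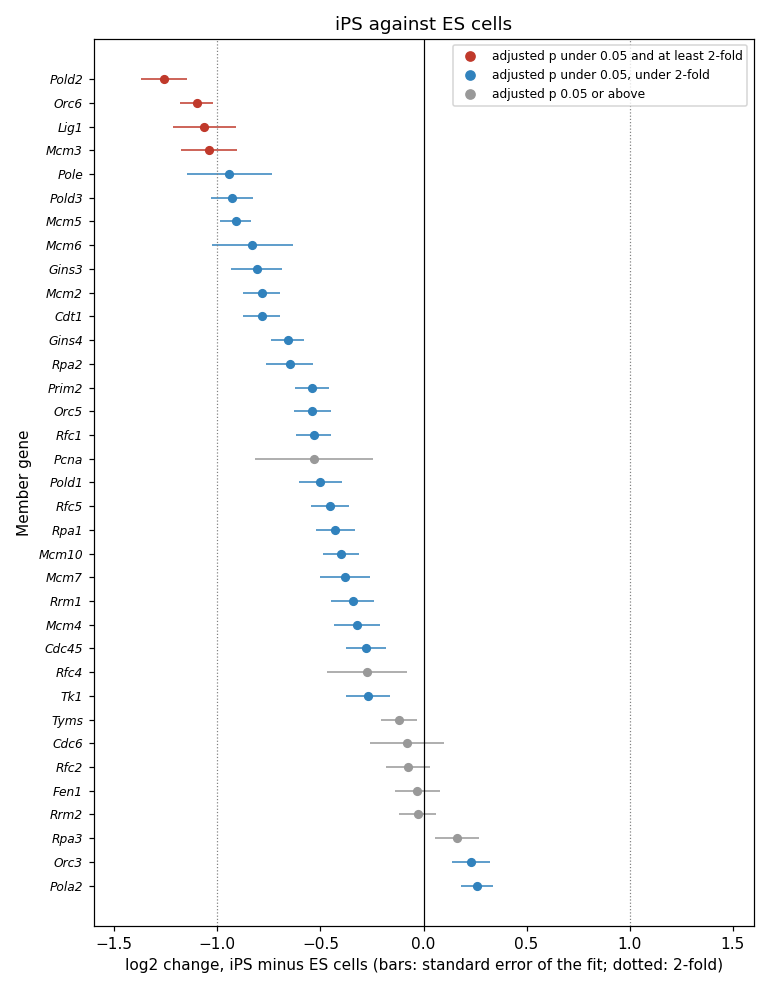
Log2 change of iPS minus ES cells for each tested member, sorted, with the standard error of the fit; dotted lines mark 2-fold and colours the test. Pold2, Orc6, Lig1 and Mcm3 lie beyond 2-fold below 0, and Orc3 and Pola2 are the members above 0 that pass the adjusted p.

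The remaining comparisons set the size of the whole range. In iPS against MEF cells 25 of the 35 tested members were higher (19.1% of all genes) and 0 lower (17.5% of all genes; limma, with 1 member, Orc3, lower at an unadjusted p under 0.05), with a median of 1.51. In ES against MEF cells 30 were higher (24.2% of all genes) and 0 lower (24.3% of all genes; limma, with Orc3 alone lower at an unadjusted p under 0.05), with a median of 2.13. All 10 helicase and all 6 polymerase and primase genes tested were among the 30, led by Mcm10 at 3.53 and Cdt1 at 3.29. In OKM against ES cells 13 were lower (16.5% of all genes) and 0 higher (18.1% of all genes; limma, with 3 members higher at an unadjusted p under 0.05), with a median of -0.88 and the largest difference for Mcm2, at -2.10. These comparisons share groups with those above and are not independent of them, and strain and culture differ with the group in ES against MEF cells.

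Other genes of S phase and the cell cycle were counted for OKM against MEF cells in lists chosen with earlier results of these data known. In that comparison 16.1% of all genes tested were called higher and 15.8% lower. Of 19 tested fork and origin factors 8 rose and 0 fell, with topoisomerase gene Top2a up by 1.68 and the polymerase epsilon subunit gene Pole4 lowest at -0.28, a change that missed the test. Of 15 tested S phase cyclin, E2F and RB genes 4 rose and 0 fell, with E2f2 up by 3.63 and E2f3 at -0.83, under 2-fold. Of 11 other nucleotide synthesis genes 5 rose and 0 fell, with Dut, which removes dUTP, up by 2.16 (detected on 2 of 4 MEF arrays) and Tk2, the mitochondrial thymidine kinase, at -0.28, which missed the test. Chromatin assembly genes rose in 4 of 7 cases, led by Uhrf1 at 1.89, and mitotic genes in 5 of 7, led by the checkpoint kinase gene Bub1b at 1.69, with 0 lower in both lists. The medians of these 5 lists were 0.96, 0.47, 0.96, 1.01 and 1.27, beside 1.11 for the replication members and 0.02 for all genes tested. At an unadjusted p under 0.05 the lower genes in these lists numbered 1, 1, 1, 0 and 0.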

How the data were processed

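Total RNA of 16 dishes, 4 per group, was measured on single-colour Illumina arrays. Per the file headers, the deposited non-normalized table gives, per array, the intensity of 25697 probes before any background subtraction, each with its detection p-value. GenomeStudio, with no version, is named in the submitters' processing notes; other steps are not given in the sources used here. The authors' normalized intensity table served as an alternative, floored at 16.

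Background correction by normexp from the detection p-values, an offset of 16, quantile normalization and log2 (neqc, limma 3.58.1, R 4.3.3) were applied. Gene symbols came from the platform annotation and were renewed through a RefSeq table (GRCm38.p6, names only), 23962 of them on the Entrez ID and 9 on an accession; 1719 probes had no symbol. Probes detected (p under 0.01) on at least 4 arrays were kept, and the brightest represented its gene. Group means were fitted over all 16 arrays with lmFit and eBayes (12 residual degrees of freedom), with Benjamini-Hochberg adjustment over 9455 genes. A gene was called at an adjusted p under 0.05 and at least 2-fold. The median standard error of a log2 change was 0.13; the number of arrays limits the precision. Where a gene was undetected on all arrays of a group, the bound uses the lowest detected signal of each array. The fit was tested on simulated log2 values with independent noise. Background correction, normalization and differences shared between arrays were not part of that test. Levels were not compared between probes of different genes.

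The members, lists and the rule for named genes (in each role, up to 3 called members with the largest change in OKM against MEF cells, the largest change in each later comparison, and every member called there) were chosen with earlier results of these data known. A planned search of protein sequences was not made. Replicate numbers did not pair the arrays: deviations of same-numbered arrays correlated at -0.42 to 0.55 over 21 pairs. Alternatives covered background, normalization, table, filter, threshold, arrays, blocks, weights and probes.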

Additional observations from a re-analysis of the deposited data

Results flagged for a closer look

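In 3 of 140 sets of 4 arrays (35 members in 4 groups), 1 array stood apart by Dixon's ratio of gap to range, above its 95% limit; chance gives about 1 in 20. Orc6 on iPS replicate 1 was the highest, at a log2 intensity of 12.40 against 12.18 for the next (ratio 0.908). Pold2 on ES replicate 4 was the lowest, at 12.23 against 12.68 for the next (ratio 0.961). Rfc5 on ES replicate 4 was the highest, at 11.41 against 11.16 (ratio 0.857).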

How the results depend on the processing

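No direction was reversed in the recomputed log2 changes. They covered the called members and, in iPS against OKM and iPS against ES, each role's largest change, called or not. The call was unchanged for 2814, and 57 no longer passed both thresholds, most often Pcna and Pole. By the adjusted p alone the higher members numbered 35 (OKM against MEF), 21 (iPS against OKM), 2 (iPS against ES) and 3 (OKM against ES), and the lower ones 3 (iPS against OKM), 1 (iPS against MEF), 25 (iPS against ES), 1 (ES against MEF) and 27 (OKM against ES). At 1.5-fold the counts were 9 higher and 3 lower in iPS against OKM, 13 lower in iPS against ES, and 2 higher and 23 lower in OKM against ES. With median scaling, which moved the median of all genes to -0.10 in iPS against OKM and -0.11 in iPS against ES, 1 member was called higher in iPS against OKM and 7 lower in iPS against ES, and 1 was called higher in OKM against ES, as with cyclic loess and with the authors' values.

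Medians over the members moved with median scaling to 0.29 (iPS against OKM), 1.37 (iPS against MEF), -0.63 (iPS against ES) and -0.96 (OKM against ES). Without a filter, which adds undetected members, they were 0.94 (OKM against MEF), 0.26 (iPS against OKM), 1.16 (iPS against MEF), -0.42 (iPS against ES), 1.64 (ES against MEF) and -0.70 (OKM against ES). Without background correction they were 0.98 and 1.55, and with the authors' values 1.24 and 2.26, in OKM and ES against MEF. Array weights gave -0.40 (iPS against ES), 1.98 (ES against MEF) and -0.81 (OKM against ES), the mean of a gene's probes 1.85 (ES against MEF), and the last 8 deposited arrays gave 1.26 (OKM against MEF) and 0.32 (iPS against OKM). The causes were not tested.

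Leaving out 1 array gave 2 to 5 lower members in iPS against ES (2 without ES replicate 2), medians of 2.01 to 2.22 in ES against MEF and -0.92 to -0.81 in OKM against ES. With the replicate block, 21 members rose in OKM against MEF, 2 in iPS against OKM and 5 were lower in iPS against ES; the numbers do not pair the dishes. Deviations from the group means correlated at a median of 0.235 between arrays on the same side of the deposited columns (first 8 or last 8) and -0.218 between sides; the labels name no batch. With the side as a block the counts were 21 higher in OKM against MEF, 2 higher in iPS against OKM and 4 lower in iPS against ES. Dim probes limit Pcna, Pole and the 7 members that failed the filter.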
